A study of Mus musculus with 12 samples.

Results

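Signalling from cytokine receptors to the nucleus was followed through 8 genes: the kinase gene Jak2, the transcription factor genes Stat3, Stat4, Irf1 and Irf8, and the feedback inhibitor genes Socs1, Socs3 and Cish. They were chosen by symbol from the 24319 entries of the deposited expression table. All 8 were among the 11991 genes tested, which had at least 1 FPKM (fragments scaled to transcript length and library total) in at least 3 of the 12 libraries. RNA came from cells that carry CD45, a surface protein of nearly all leukocytes, captured from livers of C57BL/6 mice on magnetic PE microbeads after staining with PE-conjugated anti-CD45. Every mouse, controls included, had been given the human oncogenes c-Myc and N-ras by hydrodynamic transfection, which reaches the liver, on day 0. The combination group received polyIC, a synthetic double-stranded RNA, at 4 mg/kg intraperitoneally on days 14, 16, 18, 20 and 22, and 200 µg of PD-L1 antibody, which keeps PD-L1 from engaging its T cell receptor PD-1, on days 17, 19 and 21. The antiPDL1 group received the same antibody with PBS in place of polyIC, and the polyIC group received polyIC with 200 µg of IgG in place of the antibody. In the control group PBS and 200 µg of IgG were given on those days. Each group had 3 libraries, numbered 0, 1 and 2. The protocol gives euthanasia on day 24, and the time point label reads day 22. The labels do not say whether the libraries of a group came from separate mice, so the p-values measure only the spread between these libraries, which may be technical.

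JAK kinases are bound to the tails of cytokine receptors, and when a cytokine joins the receptor chains they phosphorylate STAT proteins, which then enter the nucleus and bind DNA. STAT3 is known for carrying signals of IL-6, IL-10 and IL-21, and STAT4 for those of IL-12, and Irf1 is a target gene of interferon signalling. SOCS1, SOCS3 and CISH are made in response to these signals and block the receptor or the kinase, which closes a negative feedback loop. In the liver, STAT3 is best known for the acute phase response of hepatocytes, and in leukocytes it acts both in inflammation and in the restraint exerted by IL-10.

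The sorted cells held CD45 RNA in every library: Ptprc, which encodes CD45, had 381 to 487 FPKM in the combination, 268 to 340 with antiPDL1, 371 to 416 with polyIC and 206 to 261 in control. RNA of hepatocytes was also present, and the levels of hepatocyte, Kupffer cell and T cell genes differed between the groups. Kupffer cells and T cells are themselves leukocytes. The summed FPKM of 8 hepatocyte genes was 132 to 245 in the combination, 250 to 1648 with antiPDL1, 1198 to 1701 with polyIC and 916 to 2903 in control. For 6 Kupffer cell genes the sum was 48.5 to 198 FPKM in the combination, 646 to 5047 with antiPDL1, 443 to 1531 with polyIC and 1402 to 6885 in control. For 7 T cell genes it was 1914 to 2383 FPKM in the combination, 575 to 1443 with antiPDL1, 1167 to 1648 with polyIC and 261 to 790 in control. No gene of these lists was at 0 throughout a group. These are bulk samples, in which a gene carried by fewer cells and less of its RNA per cell cannot be told apart. Library totals lay between 476111 and 677535 FPKM, and relative depths from 0.471 to 1, with group means of 0.801 in the combination, 0.592 with antiPDL1, 0.549 with polyIC and 0.768 in control. Across genes, 3 libraries correlated better with the libraries of another group. Of these, antiPDL1 replicate 0 correlated at 0.96 with the combination and at 0.94 with its own group, antiPDL1 replicate 2 at 0.95 with the controls and at 0.927 with its own group, and control replicate 2 at 0.921 with its own group and 0.933 with polyIC. Where a result rests on these libraries, values from fits without a single library are also given.

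Irf8 and Irf1 were the most abundant of the 8 genes, and Socs1 and Socs3 the most variable. FPKM is scaled to transcript length, so levels can be compared between genes. In control cells the mean levels ran from Irf8 at 272 FPKM through Irf1 at 119, Stat3 at 45.6, Jak2 at 31.9, Stat4 at 26.4, Cish at 12.6 and Socs1 at 10.3 to Socs3 at 10.2 FPKM. The control ranges of Jak2 and Stat4, Stat4 and Cish, Cish and Socs1, and Socs1 and Socs3 overlapped, so these neighbours were not separated. In the combination Irf1 stood first at 251 FPKM, above Irf8 at 190 FPKM with no overlap, and Socs3 stood after Stat3 at 45.3 FPKM, with a range that overlapped those of Stat3 and Jak2. Over the 12 libraries the highest value was 10.4 times the lowest for Socs3, 8.22 times for Socs1, 4.59 times for Irf1, 3.24 times for Stat4, 3.1 times for Cish, 2.19 times for Stat3, 1.85 times for Irf8 and 1.36 times for Jak2. Ranked by mean FPKM among all genes tested, Irf8 lay at the 97.4th percentile and Socs1, the lowest of the 8, at the 63.6th.

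**Figure D1:**
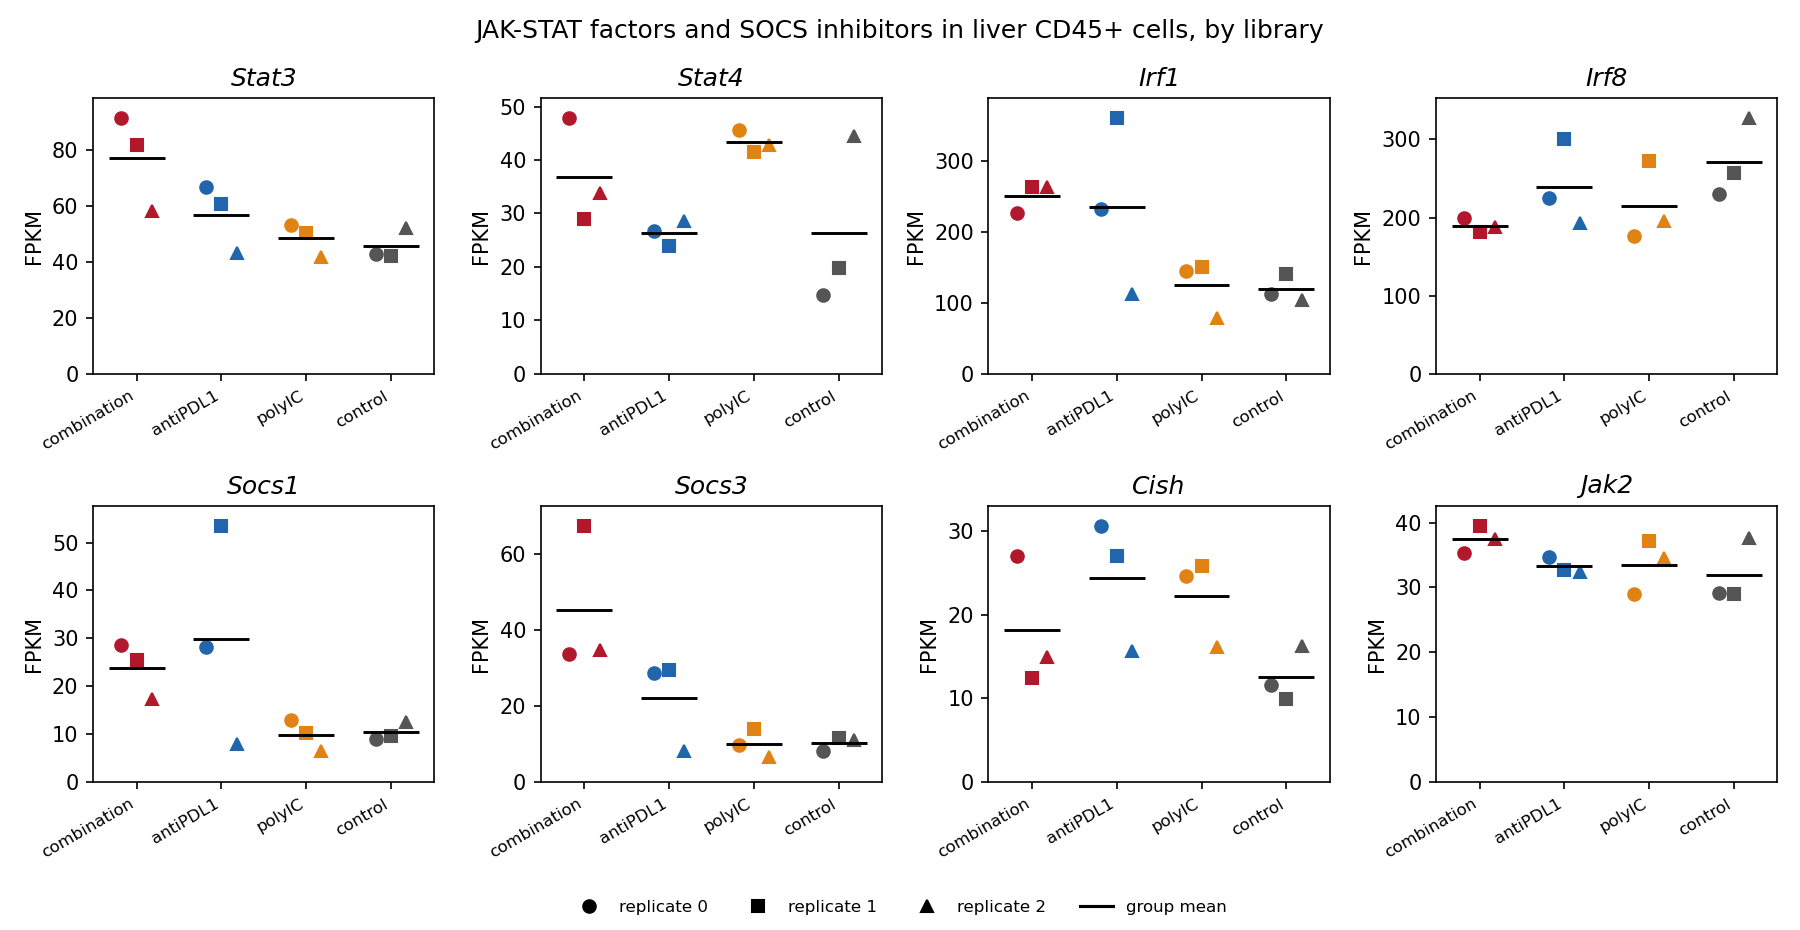
FPKM of the 8 genes in each of the 12 libraries (vertical axes, linear and starting at 0), with the 4 groups along the horizontal axes, a symbol for each replicate and a line at each group mean. Socs3 lay at 33.7 FPKM or more in the combination and at 11.5 FPKM or less in control, while Jak2 stayed between 28.9 and 39.4 FPKM in all libraries.

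In the combination, 3 of the 8 genes rose against control in limma (adjusted p under 0.05 by Benjamini-Hochberg over all genes tested) and 0 fell; of all 11991 genes tested, 13.1% rose and 16.3% fell in this comparison. In counts these were 1576 and 1951 genes, against 2004 and 1644 after quantile normalization and 346 and 8135 when FPKM was scaled to Ptprc. Ptprc itself rose in the combination, at a log2 change of 0.90, and scaling to it moved the median of all genes to -0.74 there. Of the 8 genes, those that rose in the combination were Socs3, Irf1 and Stat3, at log2 changes of 1.98, 1.08 and 0.72. With antiPDL1 alone 0 of 8 passed, against 0.208% of all genes, and with polyIC alone 0 of 8, against 3.64% of all genes. At an unadjusted p under 0.05, Cish and Irf1 passed with antiPDL1 and Stat4 and Cish with polyIC, where 17% and 22.2% of all genes did so. The median log2 change of the 8 genes was 0.66 in the combination, 0.56 with antiPDL1 and 0.05 with polyIC, beside 0.05, 0.01 and -0.01 over all genes tested. These 3 comparisons share the control libraries. Without antiPDL1 replicate 2, 4 of the 8 genes rose with antiPDL1, and 2089 of 11928 genes tested passed. Without antiPDL1 replicate 0, 0 of the 8 passed with antiPDL1 and 1 of 11960 genes tested did.

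**Figure D2:**
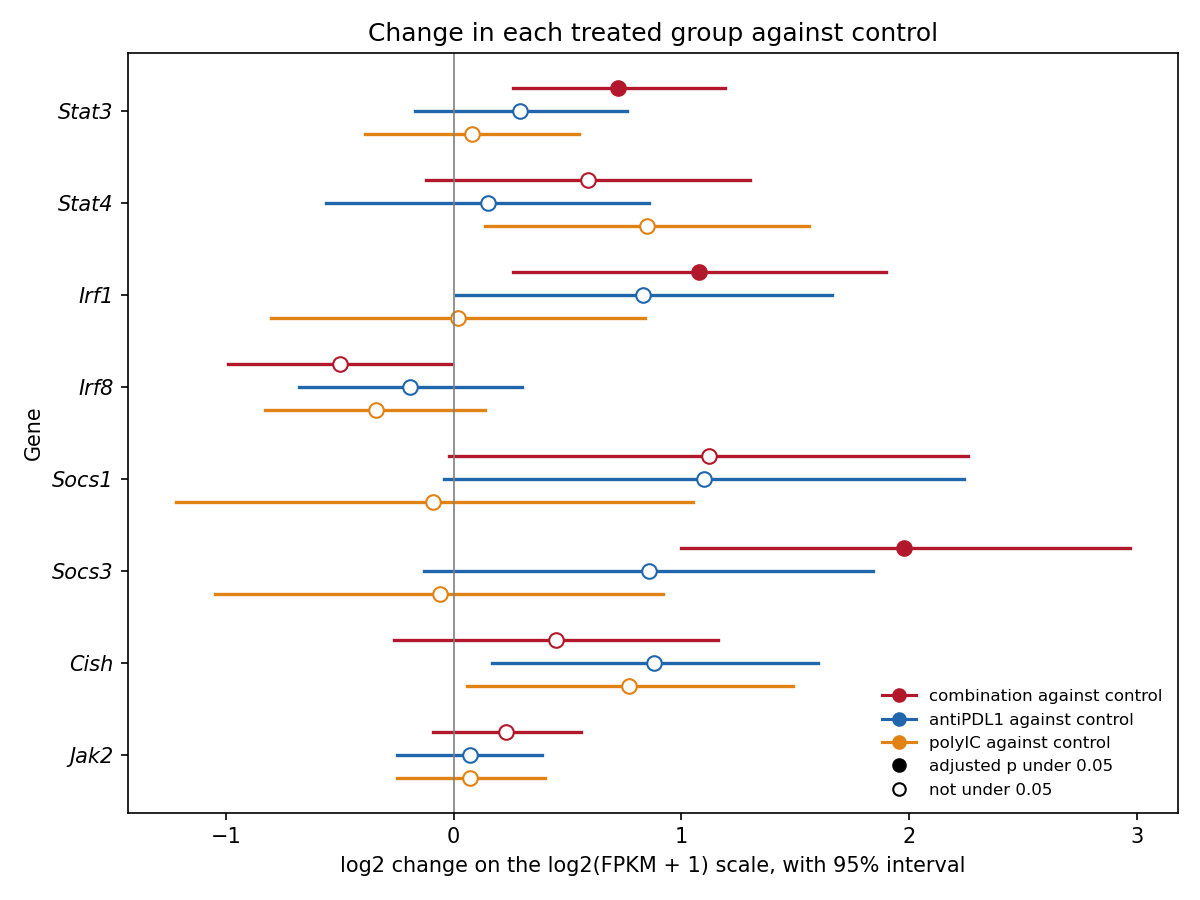
Change of each gene (rows) in the combination, antiPDL1 and polyIC groups against control on the log2(FPKM + 1) scale, with the limma estimate as a point and its 95% interval as a line. Filled points have an adjusted p under 0.05: Stat3 at 0.72, Irf1 at 1.08 and Socs3 at 1.98, all in the combination.

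The promoters of the 8 genes were searched for binding motifs of the factors themselves. STAT dimers bind a palindrome of the form TTCNNNGAA and IRF proteins bind a repeat of GAAA, any 2 bases and GAAA. RefSeq windows of 300 bases on GRCm38.p6 (250 before the annotated start and 50 from it) were found for all 8 genes, 11 windows in all, and both motifs were searched on both strands. The palindrome was present in 1 window of each of 4 genes and the repeat in 1 window of each of 2. Counted by window, this was 4 and 2 of the 11 windows. Of 32851 mouse promoter windows of the same length, 8.3% held the palindrome and 3.44% the repeat, 0.457% held the palindrome at 2 or more positions and 0.225% the repeat. The 5 windows printed are those of the genes with a motif match in the window of their first annotated start. Each is given 5′ to 3′ on the strand of the gene, with the motif matches in capitals. Socs3 lies on chr11:117969317-117969616 (minus strand), Irf1 on chr11:53769764-53770063 (plus strand), Socs1 on chr16:10785487-10785786 (minus strand), Cish on chr9:107296409-107296708 (plus strand) and Irf8 on chr8:120736108-120736407 (plus strand).
Socs3: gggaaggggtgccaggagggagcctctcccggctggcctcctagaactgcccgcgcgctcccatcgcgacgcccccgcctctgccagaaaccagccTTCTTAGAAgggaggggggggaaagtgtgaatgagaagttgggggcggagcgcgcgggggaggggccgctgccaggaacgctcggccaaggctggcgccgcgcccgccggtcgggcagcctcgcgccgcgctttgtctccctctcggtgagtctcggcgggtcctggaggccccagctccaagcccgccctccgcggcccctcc
Irf1: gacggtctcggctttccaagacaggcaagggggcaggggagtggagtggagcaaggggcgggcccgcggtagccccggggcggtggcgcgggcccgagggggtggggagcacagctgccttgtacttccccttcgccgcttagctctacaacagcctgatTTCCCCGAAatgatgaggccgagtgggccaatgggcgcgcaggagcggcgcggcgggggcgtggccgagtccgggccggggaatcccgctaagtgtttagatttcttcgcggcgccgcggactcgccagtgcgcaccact
Socs1: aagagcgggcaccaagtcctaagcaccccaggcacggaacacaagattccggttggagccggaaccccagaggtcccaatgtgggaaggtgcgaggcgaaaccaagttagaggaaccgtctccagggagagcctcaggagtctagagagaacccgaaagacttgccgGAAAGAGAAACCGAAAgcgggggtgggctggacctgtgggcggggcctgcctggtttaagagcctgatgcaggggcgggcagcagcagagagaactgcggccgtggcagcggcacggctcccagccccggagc
Cish: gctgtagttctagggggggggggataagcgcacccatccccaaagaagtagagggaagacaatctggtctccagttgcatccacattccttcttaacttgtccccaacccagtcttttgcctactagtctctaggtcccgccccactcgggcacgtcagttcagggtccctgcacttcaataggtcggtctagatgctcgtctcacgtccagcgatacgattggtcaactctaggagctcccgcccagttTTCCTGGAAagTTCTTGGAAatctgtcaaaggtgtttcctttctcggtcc
Irf8: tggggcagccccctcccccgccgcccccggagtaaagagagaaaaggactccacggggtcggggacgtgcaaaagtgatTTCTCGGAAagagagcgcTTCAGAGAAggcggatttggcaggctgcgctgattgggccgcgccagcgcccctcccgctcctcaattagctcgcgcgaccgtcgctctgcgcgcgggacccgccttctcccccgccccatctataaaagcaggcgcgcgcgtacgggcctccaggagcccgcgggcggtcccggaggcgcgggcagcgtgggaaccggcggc
Socs3 and Irf1 each held 1 palindrome, TTCTTAGAA and TTCCCCGAA, which began 154 and 90 bases before the start. Cish held 2, TTCCTGGAA and TTCTTGGAA, just after the start, and Irf8 held 2, TTCTCGGAA and TTCAGAGAA, that began 171 and 153 bases before it. In Socs1 the repeat matched at 2 positions that overlap, GAAAGAGAAA and GAAACCGAAA. The remaining match was a repeat, GAAAGTGAAA, 97 bases before the second annotated start of Stat4. Windows of Stat3 and Jak2 held neither motif in this form. A match is a description of the letters and not a measured binding site, and no binding data were analysed here.

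**Figure D3:**
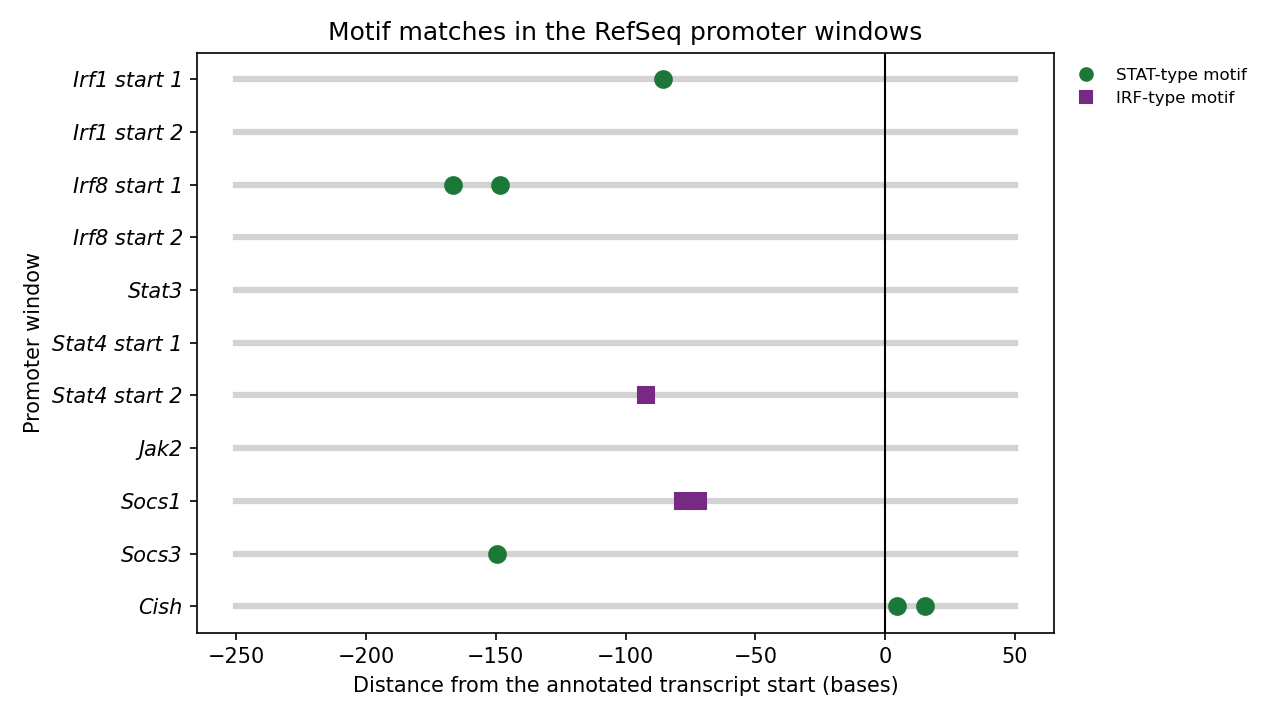
Positions of the motif matches in the 11 RefSeq promoter windows of the 8 genes, with the distance of the match's centre from the annotated transcript start in bases on the horizontal axis and a grey line for each window. Circles are the STAT-type palindrome and squares the IRF-type repeat; the 2 matches of Cish lie after the start and the others before it.

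Jak2, the kinase that serves receptors for interferon gamma, growth hormone, erythropoietin and GM-CSF, varied least. Its RNA was at 35.3, 39.4 and 37.5 FPKM in the combination, 34.7, 32.7 and 32.4 with antiPDL1, 28.9, 37.1 and 34.5 with polyIC and 29.2, 28.9 and 37.6 FPKM in control. The combination libraries lay above the antiPDL1 libraries and overlapped the controls, of which replicate 2 was the highest. The log2 change in the combination against control was 0.23 (95% interval -0.09 to 0.56, limma adjusted p = 0.249). Scaled to Ptprc in place of the library total, the change turned to -0.65 (adjusted p = 0.00431), a scaling under which the median of all genes tested was -0.74.

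Stat3 rose in the combination. It had 91.2, 81.8 and 58.1 FPKM in the combination, 66.7, 60.8 and 43.1 with antiPDL1, 53.2, 50.2 and 41.6 with polyIC and 42.8, 42.1 and 52 FPKM in control. Every combination library was above every control and every polyIC library, and the antiPDL1 range reached into both. The means were 77.04 ± 17.02 FPKM in the combination and 45.65 ± 5.55 FPKM in control (SD, n = 3 each), 1.69 times as high, with a log2 change of 0.72 (SE 0.21, limma adjusted p = 0.0265). Without control replicate 0 or 1, or combination replicate 0 or 1, the change was 0.59 to 0.68 and the limma adjusted p 0.0806 to 0.0953. Scaled to Ptprc, the change turned to -0.17 (limma adjusted p = 0.512), beside a median of -0.74 over all genes tested.

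Stat4, which is known for driving interferon gamma production in NK and T cells, was higher in the libraries with polyIC, and its call depended on a single control. It had 47.8, 29 and 33.9 FPKM in the combination, 26.8, 23.9 and 28.5 with antiPDL1, 45.7, 41.5 and 42.9 with polyIC and 14.8, 19.7 and 44.6 FPKM in control. Control replicate 2, at 44.6 FPKM, lay inside the polyIC range, and the other controls lay below all other libraries. The log2 change was 0.59 in the combination (SE 0.32, limma adjusted p = 0.182), 0.15 with antiPDL1 (adjusted p = 0.82) and 0.85 with polyIC (SE 0.32, adjusted p = 0.157). Without control replicate 2 it was 1.04 in the combination (adjusted p = 0.00404) and 1.29 with polyIC (adjusted p = 0.00778), both past the threshold. Beside it, the summed FPKM of 6 NK cell genes was 180 to 328 in the combination, 166 to 221 with antiPDL1, 499 to 833 with polyIC and 129 to 319 in control, and that of 8 genes of CD8 T and cytotoxic cells 13279 to 17200 in the combination, 2313 to 8701 with antiPDL1, 10489 to 13778 with polyIC and 835 to 2241 in control. Of the NK cell genes 1 of 6 rose in the combination and 3 of 6 with polyIC, and of the CD8 T and cytotoxic genes 8 of 8 rose in both. Of all 11991 genes tested, 1576 rose in the combination and 296 with polyIC. The part of NK, CD8 T and cytotoxic cells in the Stat4 level was not tested. Scaled to Ptprc, the Stat4 change in the combination turned to -0.28 (limma adjusted p = 0.457), beside a median of -0.74 over all genes tested.

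Irf1, an interferon-induced activator of antigen presentation genes, rose in the combination and was split within the antiPDL1 group. It had 225.9, 263.3 and 263.2 FPKM in the combination, 232.1, 359.8 and 112.2 with antiPDL1, 145.2, 150 and 78.3 with polyIC and 112.9, 140.3 and 103.2 FPKM in control. All combination libraries exceeded all controls and all polyIC libraries, while antiPDL1 replicate 2 lay among the controls and antiPDL1 replicates 0 and 1 were as high as the combination or higher. The means were 250.8 ± 21.56 FPKM in the combination and 118.8 ± 19.23 FPKM in control (SD, n = 3 each), a log2 change of 1.08 (SE 0.37, limma adjusted p = 0.0493). Scaled to Ptprc it was 0.18 (limma adjusted p = 0.626), beside a median of -0.74 over all genes tested. The call scaled to the library total was at the threshold. It was lost without control replicate 0, 1 or 2, combination replicate 0, 1 or 2, polyIC replicate 0 or 1, or antiPDL1 replicate 0. In those fits the changes were 0.99 to 1.20 and the limma adjusted p 0.0579 to 0.131. With antiPDL1 the change was 0.83 (SE 0.37, limma adjusted p = 0.291), and 1.29 without antiPDL1 replicate 2 (adjusted p = 0.0174). Over the 12 fits without a single library, the change with antiPDL1 was 0.45 to 1.29 and passed in 1.

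Irf8, the factor of dendritic cells, B cells and monocytes, was the only one of the 8 genes whose combination libraries all lay below the controls. It had 199, 182.1 and 187.9 FPKM in the combination, 225.1, 301 and 192.9 with antiPDL1, 176.6, 272.7 and 196.2 with polyIC and 230.6, 257.1 and 327 FPKM in control. The combination mean was 0.698 of the control mean, a log2 change of -0.50 (SE 0.22) that did not pass (limma adjusted p = 0.11). It passed as a fall after quantile normalization (-0.75, limma adjusted p = 0.0224) and scaled to Ptprc (-1.40, adjusted p = 7.30e-04). The median of all genes tested was 0.08 after quantile normalization and -0.74 scaled to Ptprc. Beside it, genes of cells that carry Irf8 moved both ways in the combination: 7 of 7 B cell genes, 5 of 6 plasmacytoid dendritic cell genes and 1 of 6 genes of conventional dendritic cells type 1 fell (16.3% of all genes), while 5 of 6 monocyte genes rose (13.1% of all genes). The summed B cell level was 68.7 to 145 FPKM in the combination, 157 to 385 with antiPDL1, 215 to 352 with polyIC and 370 to 1093 in control, and the summed monocyte level 920 to 1175 FPKM in the combination, 399 to 1669 with antiPDL1, 784 to 1048 with polyIC and 307 to 669 in control. The part of these cells in the Irf8 level was not tested. Of 5 factors that act with IRF8 (Spi1, Batf3, Id2, Zeb2 and Klf4), 0 passed in the combination, with log2 changes of -0.75 for Zeb2 to 0.58 for Id2.

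Socs3, the inhibitor of gp130 receptors and a STAT3 target, changed most of the 8 genes. It had 33.7, 67.4 and 34.7 FPKM in the combination, 28.6, 29.4 and 8.07 with antiPDL1, 9.77, 13.9 and 6.49 with polyIC and 8.05, 11.5 and 11.1 FPKM in control. The combination libraries lay above all 9 others, and antiPDL1 replicates 0 and 1 lay between them and the controls. The mean was 45.28 ± 19.14 FPKM in the combination and 10.23 ± 1.899 FPKM in control (SD, n = 3 each), 4.43 times as high, with a log2 change of 1.98 (SE 0.45, limma adjusted p = 0.00929). This call held in every fit that left out a single library, at limma adjusted p of 0.00112 to 0.0441. With antiPDL1 alone the log2 change was 0.86 (SE 0.45, limma adjusted p = 0.347), and 1.43 without antiPDL1 replicate 2 (adjusted p = 0.0195). Over the 12 fits without a single library, the change with antiPDL1 was 0.56 to 1.43 and passed in 1. With polyIC alone the change was -0.06 (95% interval -1.05 to 0.92). Scaled to Ptprc, the change in the combination was 1.13 (limma adjusted p = 0.0202), beside a median of -0.74 over all genes tested.

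Socs1, which blocks the receptors of interferons, was high in the same libraries but did not pass. It had 28.6, 25.5 and 17.4 FPKM in the combination, 28.1, 53.4 and 7.79 with antiPDL1, 12.9, 10.2 and 6.5 with polyIC and 8.92, 9.48 and 12.5 FPKM in control. All combination libraries lay above all controls, and the antiPDL1 group held both the highest value of the 12 libraries and a value below every control. The log2 change was 1.12 in the combination (SE 0.52, limma adjusted p = 0.123) and 1.10 with antiPDL1 (SE 0.52, adjusted p = 0.307). Without antiPDL1 replicate 2, these changes were 1.12 (limma adjusted p = 0.0145) and 1.83 (adjusted p = 0.0072), and both passed. Over the 12 fits without a single library, the change with antiPDL1 was 0.51 to 1.83 and passed in 1. The Ptprc-scaled change in the combination was 0.27 (limma adjusted p = 0.617), beside a median of -0.74 over all genes tested.

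Cish, an inhibitor that is induced by STAT5 downstream of IL-2 and related cytokines, had a pattern unlike the other inhibitors. It had 27.1, 12.4 and 15 FPKM in the combination, 30.6, 27.1 and 15.7 with antiPDL1, 24.7, 25.8 and 16.1 with polyIC and 11.6, 9.87 and 16.3 FPKM in control. The mean was higher with antiPDL1 (24.48 ± 7.779 FPKM) and with polyIC (22.18 ± 5.323 FPKM) than in the combination (18.16 ± 7.882 FPKM) and in control (12.57 ± 3.309 FPKM; SD, n = 3 each), and every treated group overlapped the controls. The log2 change was 0.45 in the combination (limma adjusted p = 0.313), 0.88 with antiPDL1 (adjusted p = 0.238) and 0.77 with polyIC (adjusted p = 0.193). Scaled to Ptprc, the change in the combination turned to -0.39 (limma adjusted p = 0.298), beside a median of -0.74 over all genes tested. Without antiPDL1 replicate 2 the change with antiPDL1 was 1.16 (limma adjusted p = 0.0346). Over the 12 fits without a single library it was 0.70 to 1.16 and passed in 1.

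Set against control, the combination libraries did not overlap the controls for 5 of the 8 genes, 4 of them higher (25.6% of all genes tested) and Irf8 lower (20.3% of all genes). With antiPDL1 or polyIC alone the groups overlapped the controls for all 8 genes, where 12.5% and 28.6% of all genes were separated. Against polyIC alone, the combination was higher with no overlap for Stat3, Irf1, Socs1 and Socs3 (13.3% of all genes), at mean ratios of 1.59, 2.01, 2.41 and 4.51. In limma 0 of the 8 passed in that comparison, where 1.23% of all genes did, and 4 had an unadjusted p under 0.05, where 13.5% of all genes did. Socs3 came closest, with a log2 change of 2.05 (SE 0.45, adjusted p = 0.055). That value passed in 5 of the 12 fits without a single library, with adjusted p of 0.0066 without antiPDL1 replicate 2, 0.0361 without control replicate 2, 0.04 without control replicate 0, 0.0447 without antiPDL1 replicate 1 and 0.0477 without antiPDL1 replicate 0. Socs1 passed there without antiPDL1 replicate 2 (1.21, limma adjusted p = 0.0496).

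Against antiPDL1 alone, the combination was higher with no overlap for Stat4, Socs3 and Jak2 (8.28% of all genes), at mean ratios of 1.4, 2.06 and 1.12. In limma 0 of the 8 genes passed, where 0.125% of all genes did. Socs3 alone had an unadjusted p under 0.05 (14.4% of all genes), at a log2 change of 1.13 (SE 0.45, adjusted p = 0.29). The interaction, which asks whether the change with polyIC differed in the presence of the antibody, passed for 0 of 8 genes in limma (0.025% of all genes). Cish had the lowest unadjusted p, 0.0233, where 2.44% of all genes were under 0.05. Its interaction was -1.21 (SE 0.46, limma adjusted p = 0.999), beside changes of 0.45 in the combination, 0.88 with antiPDL1 and 0.77 with polyIC.

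The wider pathway was followed in 151 genes, of which 128 were tested: 32 rose and 19 fell in the combination (13.1% and 16.3% of all genes). With antiPDL1 0 rose and 0 fell, where 0.208% of all genes passed. In that comparison 34 had an unadjusted p under 0.05 in limma, where 17% of all genes did. With polyIC 3 rose and 4 fell, where 3.64% of all genes passed in either direction. Among the ligands, genes of 3 cytokines made by activated lymphocytes rose strongly in the combination. Il21, whose product signals through STAT3, had 9.96, 24.2 and 19.9 FPKM in the combination and 0.163, 0.668 and 0.285 FPKM in control, a log2 change of 3.73 (limma adjusted p = 4.35e-04). Il10, which encodes the STAT3-activating cytokine that dampens inflammation, had 30.9, 79.2 and 42.6 FPKM in the combination and 2.17, 5.29 and 0.924 FPKM in control, a change of 3.83 (adjusted p = 0.00144). Ifng, the interferon gamma gene, which lies upstream of Irf1, had 82.6, 151 and 135 FPKM in the combination and 8.52, 13.6 and 16.8 FPKM in control, a change of 3.15 (adjusted p = 7.71e-04). All 3 were also higher in the combination than with polyIC alone, with log2 changes of 2.60 for Il21, 2.64 for Il10 and 1.96 for Ifng (limma adjusted p = 0.0197, 0.0375 and 0.0375). The other ligand genes that passed fell: Il6, the classical STAT3 ligand gene, by 1.13, the IL-12 subunit gene Il12b by 1.50, Tslp by 1.50, Il15 by 0.95 and Csf2 by 0.61 on the log2 scale in the combination. With polyIC alone Il12b fell by 1.49 (limma adjusted p = 0.0297).

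Receptor genes moved in both directions in the combination, where 13.1% of all genes rose and 16.3% fell. Of 8 receptor genes of the common gamma chain family, which signal through JAK1 and JAK3, 4 rose and 1 fell. The rises were Il21r at 1.62, Il15ra at 1.55, Il2rb at 1.04 and Il2rg at 0.76. Scaled to Ptprc, 0 rose and 4 fell, with Il2rg at -0.14, where 346 of all 11991 genes rose and 8135 fell. Markers of lymphocytes rose beside these receptor genes, 7 of 7 T cell genes and 8 of 8 CD8 T and cytotoxic genes in the combination. The part of these cells was not tested. The IL-12 receptor gene Il12rb1 rose by 1.64 (limma adjusted p = 0.00802). Of 9 receptor genes of the gp130 and IL-10 families, 1 rose, Il27ra at 0.99, and 5 fell, among them Lepr at -1.88, Lifr at -1.37 and Il11ra1 at -0.88. Of 8 receptor genes that use JAK2, 0 rose and 3 fell: the growth hormone receptor gene Ghr at -2.29, the erythropoietin receptor gene Epor at -2.16 and Il5ra at -1.06. Ghr had 0.559, 0.691 and 0.902 FPKM in the combination and 16, 5.68 and 4.21 FPKM in control. Ghr and Lifr are also genes of hepatocytes, and 8 of 8 hepatocyte genes and 6 of 6 sinusoidal endothelial genes also fell in the combination. The part of these cells in the receptor values was not tested.

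Of the genes followed in the JAK, STAT and IRF families, 0 of 4 JAK, 6 STAT and 8 IRF genes rose in the combination when scaled to Ptprc, and 3 JAK, 4 STAT and 5 IRF genes fell, where 346 of all 11991 genes were higher and 8135 lower. Scaled to the library total, the kinase gene Jak3 rose, with 46.5, 44.8 and 28.3 FPKM against 14.6, 12.8 and 14.9 FPKM in control (log2 change 1.41, limma adjusted p = 0.00516), while Jak1 and Tyk2 did not pass. Stat2, Stat5a, Stat5b and Stat6 ran from -0.34 to 0.40 and did not pass.

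Of the 8 SOCS family genes, 1 rose and 2 fell in the combination, near the shares of all genes (13.1% and 16.3%). When scaled to Ptprc, 1 rose and 5 fell, where 346 of all 11991 genes rose and 8135 fell. Beside the rise of Socs3, Socs2, the inhibitor of growth hormone signalling, had 2.31, 2.82 and 2.19 FPKM in the combination and 5.49, 5.99 and 9.38 FPKM in control, a log2 change of -1.18 (limma adjusted p = 0.00687). Socs5 fell by 0.75 (limma adjusted p = 0.0156), and Socs4, Socs6 and Socs7 did not pass. Of 10 other inhibitors of the pathway, which include the PIAS proteins and phosphatases, 1 rose and 1 fell. Ptpn11, the SHP2 phosphatase gene, rose by 0.63 (limma adjusted p = 0.0376; -0.24 scaled to Ptprc), and Sh2b3, an adaptor that restrains JAK2, fell by 1.09 (adjusted p = 0.00339) and with polyIC by 0.82 (adjusted p = 0.0392).

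**Figure D4:**
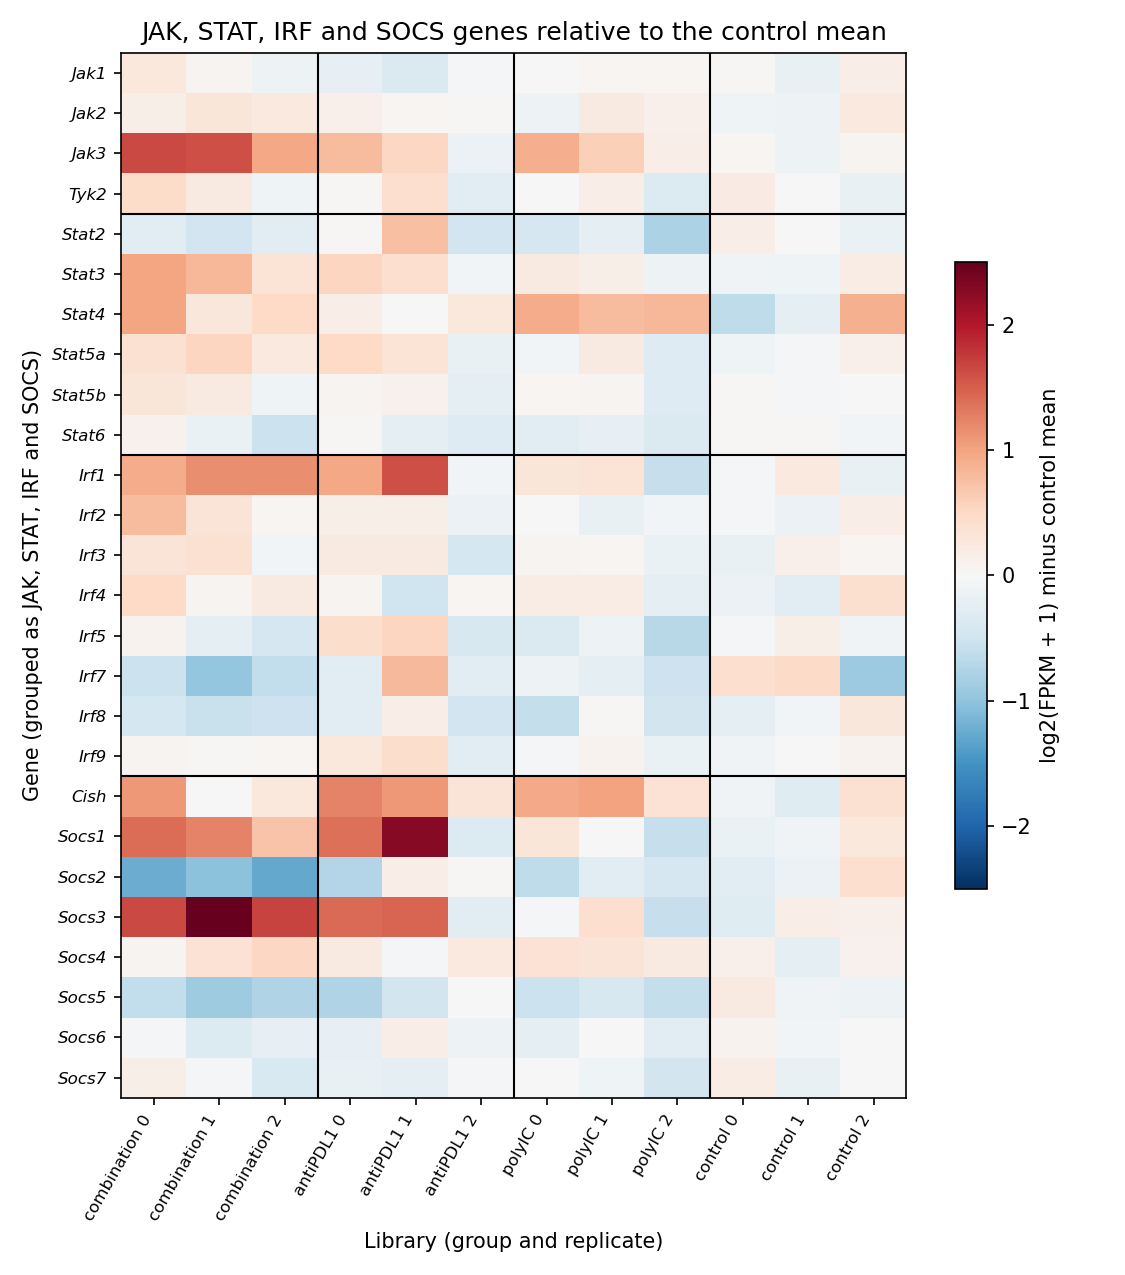
Genes of the JAK, STAT, IRF and SOCS families that were followed here (rows) in the 12 libraries (columns), coloured by log2(FPKM + 1) minus the mean of the controls. Red in Socs3, Socs1, Irf1 and Stat3 covers the combination libraries and antiPDL1 replicates 0 and 1, and antiPDL1 replicate 2 is near the controls.

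Target genes were followed in lists by factor or cytokine. Of 20 tested genes induced by interferon gamma, 13 rose and 0 fell in the combination (13.1% and 16.3% of all genes). Their median log2 change was 1.19 beside 0.05 over all genes. Scaled to Ptprc, 4 rose and 0 fell, where 346 of all 11991 genes rose and 8135 fell. The median was then 0.30 beside -0.74. The guanylate-binding protein gene Gbp2 had 357, 411 and 317 FPKM in the combination, 421, 488 and 85.7 with antiPDL1, 118, 91.9 and 77.9 with polyIC and 66.6, 103 and 61.6 FPKM in control (2.25 in the combination, limma adjusted p = 0.0104). The T cell chemokine gene Cxcl9 rose by 2.17, the immunity-related GTPase gene Iigp1 by 1.96 and Cxcl10 by 1.93. With antiPDL1, 0 of the 20 passed in limma (0.208% of all genes), though 16 had an unadjusted p under 0.05 (17% of all genes). Their median with antiPDL1 was 1.03. Without antiPDL1 replicate 2, 20 of 20 rose, where 1429 of 11928 genes tested did. Without antiPDL1 replicate 0, 0 of 11960 genes tested rose with antiPDL1. With polyIC, 0 of 20 passed (3.64% of all genes), 1 had an unadjusted p under 0.05 (22.2% of all genes), and the median was 0.33.

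The mean level of the 20 targets was high in the 5 libraries with high Irf1. On the log2(FPKM + 1) scale it was 6.83, 6.88 and 6.70 in the combination, 6.92, 7.24 and 5.56 with antiPDL1, 5.99, 5.90 and 5.51 with polyIC and 5.42, 5.64 and 5.42 in control. The library antiPDL1 replicate 1, with the highest Irf1 and Socs1 of all, also had the highest target level, and antiPDL1 replicate 2 lay within the range of the controls.

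**Figure D5:**
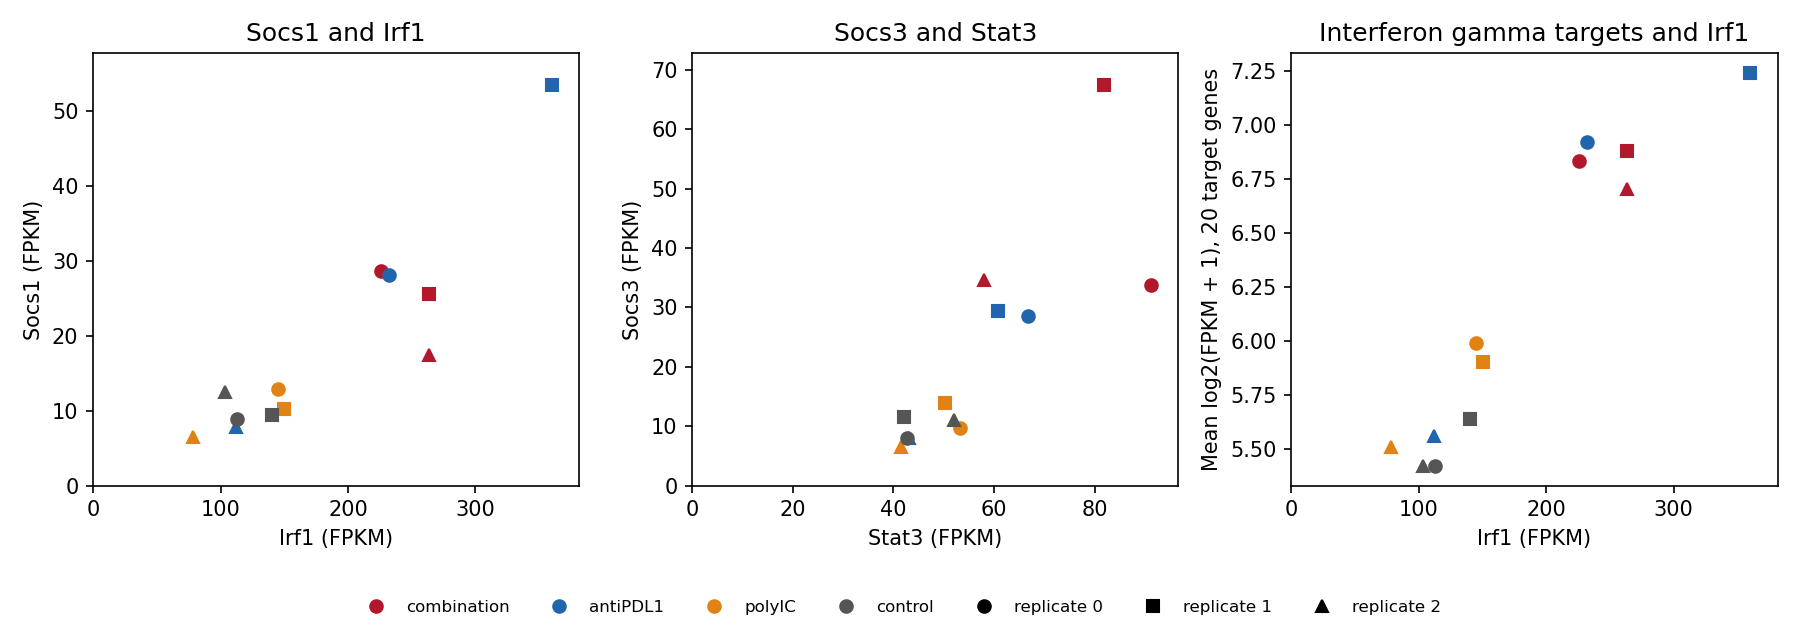
Socs1 against Irf1, Socs3 against Stat3 (both in FPKM) and the mean log2(FPKM + 1) of 20 interferon gamma target genes against Irf1 (FPKM), with a point for each of the 12 libraries, coloured by group and shaped by replicate. The combination libraries and antiPDL1 replicates 0 and 1 lie at the upper right of each panel, with Irf1 at 226 FPKM or more, and the other libraries have Irf1 at 150 FPKM or less.

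Of 11 tested STAT3 target genes, 4 rose and 0 fell in the combination (13.1% and 16.3% of all genes). On the log2 scale, the acute phase gene Saa3 rose by 4.21, the iron-binding protein gene Lcn2 by 1.32, Bcl3 by 1.12 and Hif1a by 0.91. Scaled to Ptprc, 1 rose and 2 fell, where 346 of all 11991 genes rose and 8135 fell. With polyIC, 2 rose, Saa3 by 3.66 and Lcn2 by 2.26, where 296 of all 11991 genes rose. Socs3 and Bcl3 did not pass with polyIC. Saa3 and Lcn2 are also genes of neutrophils and other inflamed cells, and the summed FPKM of 8 neutrophil genes was 1932 to 5625 in the combination, 1589 to 5358 with antiPDL1, 3345 to 5666 with polyIC and 980 to 3092 in control. The part of neutrophils in these values was not tested. Of 7 STAT4 target genes 0 passed in the combination in limma, with changes from -0.82 for Hlx to 0.81 for Tbx21. Of 6 STAT5 targets, 1 rose, Nfil3 at 1.89, and 1 fell, Lta at -0.66, and Nfil3 also rose with polyIC, at 1.49 (limma adjusted p = 0.0453).

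For each of the 8 genes, up to 3 genes with the most similar profile over the 12 libraries were taken from 8098 tested genes with a mean of at least 5 FPKM, by Pearson r on log2(FPKM + 1). These values are a description: the libraries share 4 groups and differ in depth, and no test was made. Irf1 was nearest to Zbp1, a sensor of Z-form nucleic acid (r = 0.965), the immunoproteasome gene Psmb10 (0.962) and the guanylate-binding protein gene Gbp5 (0.951). Socs3 was nearest to Tarm1, a receptor of myeloid cells (0.980), and the Toll-like receptor adaptor gene Myd88 (0.975). Socs1 was nearest to Ung (0.975), Hnrnpab (0.968) and Eif5a (0.967), and Stat3 to Ppme1 (0.976), Sec23b (0.974) and Psme3 (0.974). For Stat4 the nearest were Ugcg (0.946), Fam107b (0.938) and Tmsb15l (0.933), and for Irf8 they were Pafah1b3 (0.951), Nek6 (0.908) and Dnajc7 (0.897). Cish and Jak2 had no gene as close: the nearest to Cish was Itgax, the integrin gene of dendritic cells (0.861), before Cyp4f18 (0.794) and Slamf7 (0.786), and the nearest to Jak2 was Rps6kb1 (0.892), before Cdc73 (0.836) and Pqlc3 (0.830).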

How the data were processed

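Expression was measured in 12 libraries, 3 in each of 4 groups. The deposited table holds 1 value for each gene in each library, with no unit named. The authors' values were taken as FPKM from their form, and they were made with Cuffdiff on mm9 per the submitters' processing notes. The aligner, the version and the annotation were not given in the sources used here. Read counts were not used here, so depth is known only in relative terms, estimated from the low values of 4444 genes, and the number of libraries limits the precision. Symbols matched current names for 23124 and older names for 1065 of 24319 entries. Failed estimates (9 genes at 0 in whole groups that reached 5 FPKM elsewhere) were left out. limma 3.58.1 (limma-trend, two-sided, R 4.3.3) was fitted on log2(FPKM + 1) to the 12 libraries together, with a term for group alone, and p-values were adjusted by Benjamini-Hochberg over 11991 genes. Fold changes on this scale understate the change of low genes. On simulated data for the combination against control, with 200 of 11991 genes changed, 53% of changes of log2 size 1 and 91% of size 2 were recovered. The simulated noise was independent between genes, and the changed genes had a mean log2(FPKM + 1) over 2. In the data 3527 genes passed and whole libraries stood apart, so these rates do not give the recovery in the data. The 8 genes and the lists were chosen with earlier results of these data known. Up to 4 genes that passed with the largest change in the combination were named per list, and some genes of these lists are not reported here. Same-numbered libraries were checked for pairing: deviations from group means correlated above 0.1 in 4 of 18 pairs, so the numbers were not used as pairs. Promoters and names are from RefSeq (GRCm38.p6), whose coordinates are not those of mm9. Tables and plots were made in Python 3.11.15 (pandas 2.3.3, numpy 2.4.6, matplotlib 3.10.9).

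The alternatives tried changed the pseudocount (to 0.1), the filter (none, or a mean of at least 5 FPKM, or failed estimates kept), the scaling (median-of-ratios or quantile normalization), or the model (array quality weights, a replicate block, a hepatocyte marker covariate, fits of the compared groups alone), or left out each library in turn or both libraries that stood apart. FPKM relative to Ptprc was added after seeing the data.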

Additional observations from a re-analysis of the deposited data

How the results depend on the processing

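Socs3 kept its rise in the combination in 23 of 24 alternatives, Stat3 in 18 and Irf1 in 11. With the hepatocyte marker covariate 0 of the 8 genes passed in that comparison (Socs3 0.60, limma adjusted p = 0.888). Irf1 turned to -0.04 there, Socs1 to -1.37, Cish to -0.72 and Stat4 to -0.30. The hepatocyte sums of the combination and control do not overlap, so covariate and group cannot be told apart. Scaled to Ptprc, 3 genes passed with polyIC, with Stat3 and Jak2 turned to -0.61 and -0.61 and Irf1, which did not pass, to -0.68. In the combination Jak2 turned to -0.65, Stat3 to -0.17, Stat4 to -0.28 and Cish to -0.39, and with antiPDL1 Jak2 turned to -0.30, Stat3 to -0.08 and Stat4 to -0.21; the median of all genes was then -0.74 in the combination, -0.33 with antiPDL1 and -0.64 with polyIC. Array quality weights gave 7 genes in the combination, 4 with antiPDL1, 2 with polyIC, 6 for the combination against polyIC and 1 against antiPDL1. The falls among these were Irf8 in the combination, Cish and Stat4 against polyIC, and Cish against antiPDL1. A fit that left out both control replicate 2 and antiPDL1 replicate 2 gave 5, 4, 2, 4 and 0 genes, all higher. The calls among all 11857 genes tested in that fit were 5078, 3285, 2801, 1116 and 88, in the same order. The combination against polyIC had 1 gene at a pseudocount of 0.1, 1 with median-of-ratios rescaling and 3 in a fit of only those groups. Leaving out each library in turn gave 1 to 4 genes in the combination, 0 to 4 with antiPDL1, 0 to 1 with polyIC, and 0 to 2 for the combination against polyIC. A replicate block changed no call of the 8 genes: 3 passed in the combination, and Socs3 stayed at 1.98 (adjusted p = 0.0067); over all genes it left 7 calls for the combination against polyIC, against 148. The replicate numbers come from the labels without a stated pairing.

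Over all genes, the combination against control had 3527 calls, 1681 to 4442 without a single library, 1963 at a mean of at least 5 FPKM, 6883 with weights, 0 with the hepatocyte covariate and 8481 scaled to Ptprc, of which 346 were higher. PolyIC had 437 calls, 40 to 1844 without a single library, 212 at a mean of at least 5 FPKM, 783 with quantile normalization, 3439 with weights and 7237 scaled to Ptprc, of which 239 were higher. AntiPDL1 had 25 calls, 0 to 2089 without a single library, 139 with no filter, 5 at a mean of at least 5 FPKM, 40 with failed estimates kept, 2585 with weights, 1 with the hepatocyte covariate, 84 scaled to Ptprc and 2 in a fit of only those groups. The combination against polyIC had 148 calls and 0 to 536 without a single library, 344 at a pseudocount of 0.1, 26 with no filter, 77 at a mean of at least 5 FPKM, 6 with quantile normalization, 1 with the hepatocyte covariate, 14 scaled to Ptprc, 1344 in a fit of only those groups and 3654 with weights. The combination against antiPDL1 had 15 calls, 0 (without antiPDL1 replicate 2 or combination replicate 1) to 329 (without antiPDL1 replicate 0) without a single library, 278 without control replicate 2, 31 with no filter, 6 at a mean of at least 5 FPKM, 1 in a fit of only those groups, 1 with the replicate block, 818 with weights, 3 with the hepatocyte covariate and 38 scaled to Ptprc. The interaction had 3, against 0 to 5 without a single library, 1 at a mean of at least 5 FPKM, 13 with weights and 12 with failed estimates kept. Depth is known only in relative terms, so the counting error in the values of Socs1, Socs3 and Cish could not be estimated. The causes of these shifts were not tested.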

Other observations

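The 5 libraries with the highest Irf1 were also the 5 with the highest Socs1, Socs3 and Stat3: the 3 combination libraries and antiPDL1 replicates 0 and 1. Socs3 was at 28.6 FPKM or more in these 5 and at 13.9 FPKM or less in the other 7, Socs1 at 17.4 or more and 12.9 or less, Irf1 at 226 or more and 150 or less, and Stat3 at 58.1 or more and 53.2 or less. Of the 20 interferon gamma targets, 19 were split in the same way. Of all 11991 genes tested, 747 (6.23%) had all 5 of these libraries above the others. This set of libraries was picked after the values were seen, so the split is a description with no test. Stat4, Irf8, Cish and Jak2 were not split in this way.

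The levels of 3 inhibitors were also set against those of 3 factors. The ratio of Socs3 to Stat3 FPKM was 0.37, 0.824 and 0.597 in the combination, 0.429, 0.483 and 0.187 with antiPDL1, 0.184, 0.276 and 0.156 with polyIC and 0.188, 0.274 and 0.214 in control. The combination ratios all lay above the controls. The ratio of Socs1 to Irf1 was 0.126, 0.0969 and 0.066 in the combination, 0.121, 0.149 and 0.0694 with antiPDL1, 0.0892, 0.0682 and 0.083 with polyIC and 0.079, 0.0676 and 0.121 in control, with all groups overlapping. The ratio of Cish to Stat4 was 0.568, 0.426 and 0.442 in the combination, 1.14, 1.13 and 0.552 with antiPDL1, 0.541, 0.622 and 0.374 with polyIC and 0.784, 0.501 and 0.364 in control, and every treated group overlapped the controls.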
